A study of Mus musculus with 92 samples.

Results

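The HoxB cluster is a row of 10 homeobox genes on mouse chromosome 11 (Hoxb13, Hoxb9, Hoxb8, Hoxb7, Hoxb6, Hoxb5, Hoxb4, Hoxb3, Hoxb2 and Hoxb1), and the deposited peak lists show where cohesin and CTCF were called along it. Every peak of all 30 lists with a base between 10 kb before Hoxb13 and 10 kb after Hoxb1 was taken, a window of 193.939 kb at chr11:96184316-96378254 (mm10). It held 420 of the 1189945 peaks of all lists, and these merged into 57 distinct intervals, peaks being joined where they shared at least 1 bp.

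Chromatin immunoprecipitation followed by sequencing (ChIP-seq) of crosslinked chromatin was used for 3 subunits of cohesin (STAG1, STAG2, STAG3) and for CTCF. Wild-type ESC (embryonic stem cells), EpiLC (epiblast-like cells) and the primordial germ cell-like cells d2PGCLC and d4c7PGCLC were of the BDF1-2-1 line BVSC, with Blimp1-mVenus and Stella-ECFP reporters, and PGCLC were sorted as BV-positive cells. Germline stem cells (GSC), self-renewing cells of the spermatogonial lineage, were of another line, AAG, with Acrosin-EGFP and beta-Actin-EGFP, and had been sorted for AAG, so for GSC the cell type and the line cannot be told apart. STAG1 had 2 lists in each of the 5 cell types. STAG2 had 2 lists in ESC and in EpiLC and 3 in each of the others, and STAG3 had 3 in GSC. All STAG lists, those of GSC included, were of wild-type cells. CTCF had 1 list of pooled replicates in each of 4 GSC mutants: Stag3 KO, Stag2Stag3dKO (Stag1-only), Stag1Stag3dKO (Stag2-only) and Stag1Stag2dKO (Stag3-only). All CTCF lists used here are thus of mutant GSC. Peak lists hold no expression values, so the cell types were not checked against marker genes.

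Hox genes encode transcription factors that give cells their position along the head-to-tail axis. They lie in clusters and are switched on in the order in which they lie, with Hoxb1 at the early, anterior end and Hoxb13 at the late, posterior end. Cohesin is a ring-shaped complex that extrudes DNA loops and often halts at CTCF, and CTCF sites within Hox clusters are known for separating active from silenced genes. Each cohesin ring carries 1 STAG subunit.

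A wide stretch free of other protein-coding genes divides the cluster. Hoxb13 lies at chr11:96194316-96196610, and the gap to Hoxb9 is 74.719 kb long. From there the genes are packed. Hoxb9 lies at chr11:96271330-96276595, Hoxb8 at chr11:96279401-96285325, Hoxb7 at chr11:96285604-96290163, Hoxb6 at chr11:96292814-96301569 and Hoxb5 at chr11:96303512-96306121. The longest gene model, Hoxb3 at chr11:96307101-96347930, holds Hoxb4 at chr11:96318267-96321638 within it, so that a peak at Hoxb4 is also a peak at Hoxb3. Hoxb2 at chr11:96351632-96354020 and Hoxb1 at chr11:96365746-96368254 close the row. The part from Hoxb9 to Hoxb1 spans 96.925 kb.

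The lists differed in length, from 9641 to 42013 peaks for STAG1, from 13698 to 84904 for STAG2, from 12832 to 39681 for STAG3 and from 39639 to 43877 for CTCF. The sequencing depth behind them is unknown, and a place without a call is not a place without protein. One GSC STAG2 list, replicate 3, stood apart: it had 27 peaks in the window against 13 in replicate 1, although their full lengths, 25979 and 25021 peaks, were close. In EpiLC, STAG1 replicate 2 had 12 window peaks and replicate 1 had 7. The labels do not say whether replicates were separate cultures, so each p-value reflects just the spread among these lists, and that spread may be technical.

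The same 9 intervals, spread from the gap to Hoxb3, carried CTCF in all 4 genotypes, and 8 of them were called for STAG1, STAG2 and STAG3 alike. Of the 9, 3 were called in all 30 lists. The first of these lies in the gap at chr11:96234701-96235516, 35814 bp before Hoxb9. The next, at chr11:96278621-96279954, lies between Hoxb9 and Hoxb8 and reaches the first bases of the Hoxb8 model. The last, at chr11:96302970-96304141, covers the annotated start of Hoxb5, a gene used as a mark of blood stem cells, and part of the long noncoding RNA gene Hoxb5os. The SDs of their summits over the 30 lists were 25.5, 37.2 and 52.9 bp, but at the last 2 the proteins differed in position. Between Hoxb9 and Hoxb8, CTCF summits stood at 96278934 to 96278941 and STAG summits at 96279000 to 96279063. At Hoxb5, CTCF and STAG3 summits stood at 96303206 to 96303235, and STAG1 and STAG2 summits at 96303315 to 96303367.

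The Hoxb9 to Hoxb8 interval held the peak of highest fold enrichment within the window in all 13 STAG2 lists, 8 of 10 STAG1 lists and 2 of 3 STAG3 lists. The fold enrichment of a peak is the authors' own ratio over background and is used here only to describe and rank peaks within a list. For STAG2 it ran from 39.0 to 152, with a median of 104, and the peak stood within the top 4.02% of each STAG2 list. For STAG1 it ran from 9.73 to 47.3, with a median of 27.5, within the top 16.7% of each list. In the 3 STAG3 lists it was 7.99, 20.4 and 20.9, which placed it in the top 18.3%, 0.642% and 0.670% of their lists. The 4 CTCF lists gave 35.4 in Stag3 KO, 34.9 in Stag1-only, 33.8 in Stag2-only and 31.7 in Stag3-only cells. The CTCF values lay close together, and the peak stood within the top 13.9% of each CTCF list.

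The 6 other intervals with CTCF in all 4 genotypes were called in fewer lists. In the gap, chr11:96223801-96224387 was called in 25 lists and chr11:96240049-96240797 in 28, the latter in every STAG1 and STAG2 list but in 1 of 3 STAG3 lists. Nearer Hoxb9, chr11:96261497-96262018 in the noncoding gene Gm53 was called in 26 lists. Within Hoxb6, which together with its neighbours patterns the thoracic skeleton, chr11:96294326-96295086 was called in 23 lists, among them 7 of 10 for STAG1, 12 of 13 for STAG2 and none of 3 for STAG3. It was the only 1 of the 9 with no STAG3 call. Within Hoxb3, chr11:96311433-96312402 was called in 28 lists and chr11:96345486-96346837 in 15. The latter had CTCF in all 4 genotypes at 4.22 to 13.3 fold, but was called in 1 of 10 STAG1, 8 of 13 STAG2 and 2 of 3 STAG3 lists. The strongest STAG3 summits there, at 96345675 and 96345684, lay apart from the CTCF summits at 96346191 to 96346222.

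**Figure D1:**
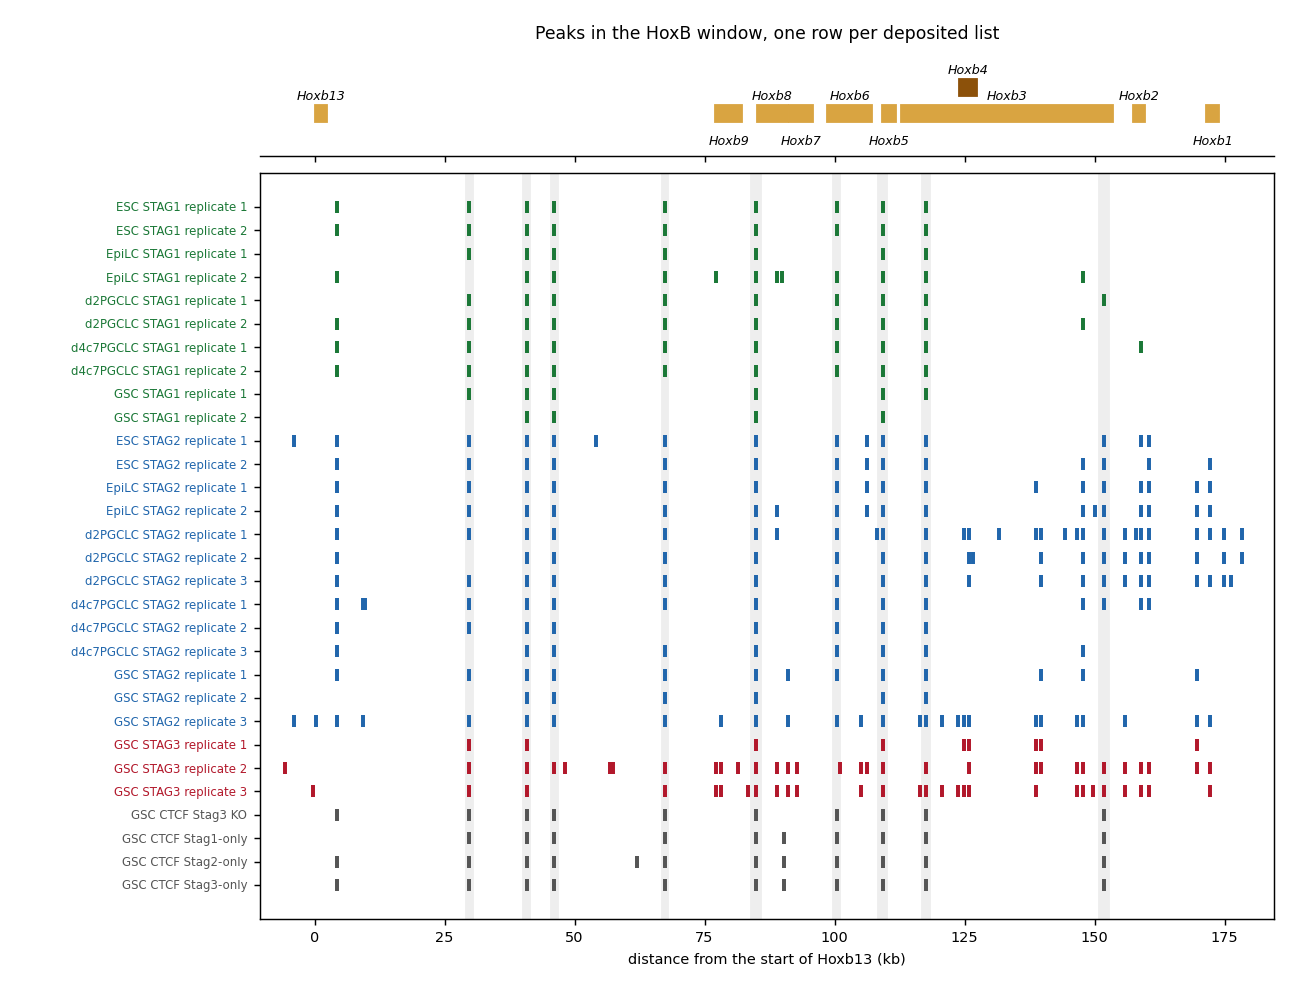
Calls in each of the 30 lists (rows, coloured by protein) along the HoxB window. The x axis is the distance from the start of Hoxb13 in kb, each tick stands at the midpoint of a distinct interval whatever its width, boxes on top are gene models, and grey bands mark the 9 intervals with CTCF in all 4 genotypes. Ticks off the grey bands are sparse for STAG1, gather between Hoxb4 and Hoxb1 in the d2PGCLC STAG2 lists and in GSC STAG2 replicate 3, and are spread from Hoxb9 to Hoxb1 in STAG3 replicates 2 and 3.

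CTCF calls differed between the 4 mutant genotypes at 3 intervals, all with modest fold enrichment. Beside Hoxb13, a posterior gene that restrains tail growth, chr11:96198370-96199022 had CTCF at 17.5 fold in Stag3 KO, 5.43 in Stag2-only and 13 in Stag3-only cells, and none was called in Stag1-only cells. This interval, 1760 bp from Hoxb13, was also called in 6 STAG1, 12 STAG2 and no STAG3 lists. In Hoxb8, chr11:96284475-96284785 had CTCF in Stag1-only, Stag2-only and Stag3-only cells at 5.38, 4.61 and 5.00 fold but not in Stag3 KO cells, and no STAG list had a peak there. The third, chr11:96256125-96256360 in Gm53, was called in Stag2-only cells alone. None of these CTCF peaks stood above the top 52.7% of its list. With 1 pooled list a genotype, no difference between genotypes was tested.

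Away from those 9 intervals, calls were mostly of STAG2 and STAG3. Of the 57 intervals, 45 had no CTCF call in any genotype. STAG1 was called at 5 of these 45, STAG2 at 33 and STAG3 at 30, with 16 held by STAG2 and STAG3 but not STAG1, 14 by STAG2 alone, 10 by STAG3 alone, 3 by all of them, 1 by STAG1 alone and 1 by STAG1 and STAG3. Many rest on little data: 21 of the 57 intervals were called in 1 list, and 6 of these 21 came from STAG3 replicate 2. The 36 intervals that were not called in every list of any group, nor in all CTCF lists, were each called in at most 5 lists.

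Hoxb4, which promotes the self-renewal of blood stem cells, and Hoxb1, which specifies a hindbrain segment and maintains its own expression there together with Pbx partners, had neither STAG1 nor CTCF calls within 2500 bp in any list. Hoxb4 was called in all 3 d2PGCLC STAG2, 1 of 3 GSC STAG2 and all 3 STAG3 lists. The interval most often called there, chr11:96319908-96320356 inside Hoxb4, had fold enrichments of 8.1, 4.6 and 3.3 in d2PGCLC STAG2 and 6.7, 6.1 and 7.0 in STAG3. These placed it in the top 47.7%, 98.0% and 99.9% of the d2PGCLC STAG2 lists, so replicates 2 and 3 rest on very weak peaks. In the STAG3 lists it stood in the top 36.6%, 41.2% and 27.3%. Hoxb1 was called in 1 of 2 ESC, 2 of 2 EpiLC, 3 of 3 d2PGCLC, no d4c7PGCLC and 2 of 3 GSC STAG2 lists, and in all 3 STAG3 lists. Its intervals were chr11:96363716-96364369 before the gene, chr11:96365560-96367321 across its start, and chr11:96368573-96369770 and chr11:96370541-96370740 after its end. The third was called in the 3 d2PGCLC STAG2 lists and in no other list, and the last, 2287 bp from the gene, in d2PGCLC STAG2 replicate 3 alone.

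Peaks touched the start of both genes in 2 lists each, and the bases before these starts are shown because they are where cohesin was called without CTCF. The stretches are from RefSeq (GRCm38.p6), plus strand, 5′ to 3′. The Hoxb1 stretch, chr11:96365508-96365745, was touched by d2PGCLC STAG2 replicates 1 and 3. The strongest peaks of these lists in that interval had summits at 96366870 and 96366880, past the stretch. The Hoxb4 stretch, chr11:96318017-96318266, was touched by GSC STAG2 replicate 3 and STAG3 replicate 3. There the fold enrichments were 3.68 and 6.06, which placed the peaks in the top 99.6% and 42.3% of their lists, so the first was among the weakest. Capitals mark a match to the Pbx-Hox motif.
Hoxb1: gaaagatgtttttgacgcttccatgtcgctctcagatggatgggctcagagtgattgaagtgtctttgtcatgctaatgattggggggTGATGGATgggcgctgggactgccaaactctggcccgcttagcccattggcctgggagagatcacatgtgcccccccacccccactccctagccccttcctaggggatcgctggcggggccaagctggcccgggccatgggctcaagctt
Hoxb4: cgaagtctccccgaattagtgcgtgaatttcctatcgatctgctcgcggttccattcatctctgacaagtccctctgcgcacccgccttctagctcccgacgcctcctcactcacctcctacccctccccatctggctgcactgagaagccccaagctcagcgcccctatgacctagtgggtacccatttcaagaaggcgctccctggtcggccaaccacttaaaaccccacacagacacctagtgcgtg
Both strands were searched for TGATNNAT, a core of sites bound by Pbx and Hox proteins together, and for CCANNAGNNGGC, a core of CTCF sites. TGATNNAT occurred once, at base 89 of the Hoxb1 stretch, and did not occur in the Hoxb4 stretch. It occurred in 8.85% of the 32851 promoters of 300 bp in the RefSeq table. CCANNAGNNGGC occurred in neither stretch and in 2.43% of those promoters. The G and C content was 59.2% over 238 bp before Hoxb1 and 58% over 250 bp before Hoxb4, against a median of 52.7% over all promoters, and the stretches held 7 and 14 CpG. A match is only a match of letters. The Hoxb8 promoter in the same table was touched by no peak.

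Hoxb2 and Hoxb3, also genes of the hindbrain, had further intervals without CTCF. Hoxb2 was called in 12 lists, of which 9 were STAG2, 2 STAG3 and 1 STAG1. Its 2 main intervals were chr11:96352612-96353776 over the gene and chr11:96354368-96355283 just after it, each called in 10 lists. Where called for STAG2, the first stood in the top 31.4% to 99.7% of its lists and the second in the top 47.8% to 89.3%. Hoxb3 had 17 intervals within 2500 bp, the most of the 10 genes, and also the longest gene model. Among them, chr11:96341707-96342472 was called in 14 lists, 2 for STAG1, 10 for STAG2 and 2 for STAG3, at 17.7, 12.5 and 16.8 fold in the d2PGCLC STAG2 lists. Over all its STAG2 calls the fold enrichment ran from 4.35 to 17.7. Further intervals in or near Hoxb3 were chr11:96332820-96333423, chr11:96333550-96334508 and chr11:96349710-96350490, called in 6, 7 and 6 lists. The first of these 3 was called in every STAG3 list, and each of the other 2 in every d2PGCLC STAG2 list. Many of these peaks were weak. The first stood in the top 59.2%, 94.6% and 96.3% of the STAG3 lists. In the d2PGCLC STAG2 lists the second stood in the top 64.5%, 73.3% and 94.0%, and the third in the top 92.4%, 88.6% and 59.1%. In Hoxb6, chr11:96300421-96300864 was called in both ESC and both EpiLC STAG2 lists, in STAG3 replicate 2 and in no other list.

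**Figure D2:**
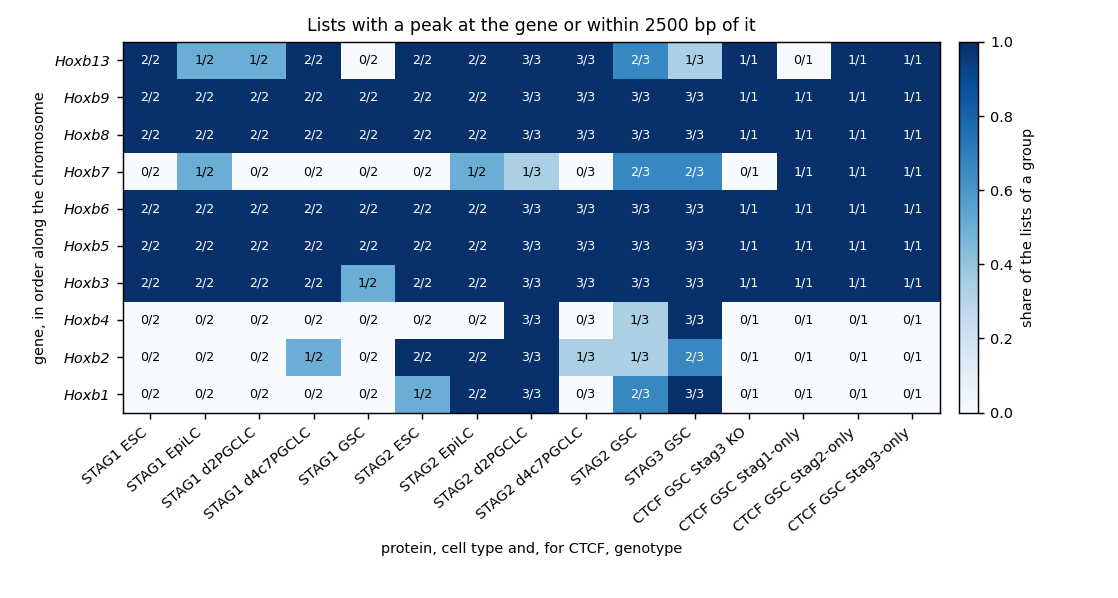
Number of lists of each protein, cell type and genotype (columns) with a peak at each HoxB gene or within 2500 bp of it (rows, in chromosome order), with the shade giving the share of the group's lists. Hoxb9, Hoxb8, Hoxb6 and Hoxb5 were called in all 30 lists, and Hoxb4 and Hoxb1 in no STAG1 and no CTCF list.

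A gene was counted for a group when every list of the group had a peak at the gene or within 2500 bp. The same share over all 21887 protein-coding genes is given as the background. For STAG1, ESC had 6 of the 10 HoxB genes counted (42.7% of all genes), EpiLC 5 (25.8%), d2PGCLC 5 (35.8%), d4c7PGCLC 6 (48.7%) and GSC 4 (15.2%). For STAG2, ESC had 7 (65.1%), EpiLC 8 (68.3%), d2PGCLC 9 (54.0%), d4c7PGCLC 6 (47.4%) and GSC 5 (23.2%). Without the short list of GSC replicate 2 the GSC count was 8, for which no share of all genes was computed. STAG3 in GSC reached 7 of 10 (32.5%). CTCF reached 6 in Stag3 KO (55.6%), 6 in Stag1-only (54.0%), 7 in Stag2-only (53.0%) and 7 in Stag3-only cells (54.5%). For CTCF and for STAG2 in ESC these shares were near the background. In GSC the STAG1, STAG2 and STAG3 shares stood above it, but the genes share intervals: the 4 genes with STAG1 in GSC rest on 2, those between Hoxb9 and Hoxb8 and at Hoxb5. With no bases beside the gene, the GSC counts were 0 for STAG1 (11.7% of all genes), 1 for STAG2 (17.8%) and 2 for STAG3 (26.5%), so none of the 3 then stood above the background.

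Hoxb13 and Hoxb7 varied most among the posterior genes. Hoxb13 was called in 22 lists, including 12 of 13 for STAG2, 6 of 10 for STAG1 and 1 of 3 for STAG3, and in no GSC STAG1 list. Hoxb7, a neighbour of Hoxb8, was called in 10 lists, through 5 intervals that all lie within 2500 bp of Hoxb8 too. Hoxb3 was missed in 1 list, GSC STAG1 replicate 2. The order by number of lists was Hoxb9, Hoxb8, Hoxb6 and Hoxb5 at 30, then Hoxb3 at 29, Hoxb13 at 22, Hoxb2 at 12, Hoxb1 at 11, Hoxb7 at 10 and Hoxb4 at 7. The last 4 follow each other closely, and neighbouring genes in this order were not tested against each other.

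Among the 29 genes of the other Hox clusters, the calls of Hoxb13 were most like those of Hoxd13, Hoxd12 and Hoxa13, which were in the same state, called or not, in 26 of 30 lists. Hoxb1 was most like Hoxd1 (26 lists), Hoxb4 most like Hoxd1 and Hoxa4 (26 lists) and Hoxb7 most like Hoxc9 (23 lists). Hoxb3 and Hoxb2 each had 5 genes tied, at 29 and 25 lists. These likenesses are descriptions, since all genes are read in the same lists.

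Partners and regulators of Hox genes formed a list of 19: the Pbx, Meis and Pknox cofactors, the Cdx factors, the retinoic acid receptors, Kmt2a of the activating Trithorax group, and Ezh2, Eed and Suz12 of Polycomb. By the same rule STAG1 was counted at 12 of the 19 in ESC, at 7 in EpiLC, at 9 in d2PGCLC, at 12 in d4c7PGCLC and at 3 in GSC. STAG2 was counted at 17, 19, 15, 13 and 7 of them in the same order, STAG3 at 7, and CTCF at 14 in each genotype. The shares of all genes given above for each group are the background of these counts too, and STAG3, at 7 of 19, lay near its 32.5%. Those counted for STAG3 included Meis2, Meis3 and Pknox1, DNA-binding partners of Hox proteins. For the 29 other Hox genes, STAG3 was counted at 8 (32.5% of all genes), STAG1 in GSC at 10 (15.2%) and STAG2 in GSC at 13 (23.2%). STAG3 thus had 7 of 10 HoxB genes and 8 of 29 others, a difference that was not tested. The HoxB genes share intervals, and their STAG3 count shrank with fewer bases beside the gene. The other Hox genes were not counted that way.

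STAG2 had more peaks in the HoxB window than STAG1. For STAG1, ESC lists held 9 and 9 peaks, EpiLC lists 7 and 12, d2PGCLC lists 10 and 11, d4c7PGCLC lists 10 and 9, and GSC lists 6 and 4. For STAG2, ESC lists held 15 and 14 peaks, EpiLC lists 18 and 18, d2PGCLC lists 31, 20 and 22, d4c7PGCLC lists 15, 8 and 9, and GSC lists 13, 6 and 27. The groups did not overlap in ESC, EpiLC and d2PGCLC, overlapped in d4c7PGCLC, and touched at 6 peaks in GSC. Averaged over the 5 cell types, STAG2 lists had 16.6 and STAG1 lists 8.70 peaks, a difference of 7.87 (two-sided exact permutation test within cell types, p = 0.00106). STAG2 lists were also longer than STAG1 lists genome-wide in every cell type but d4c7PGCLC, where lengths overlapped. Per 10000 peaks of a list the window held 3.52 STAG2 and 3.82 STAG1 peaks, a difference of −0.303 (exact permutation p = 0.680). With every list kept to its 9641 peaks of highest fold enrichment, the difference in number was 0.133 (exact permutation p = 0.713), so the call did not hold among top-ranked peaks.

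A smaller share of STAG2 than of STAG1 window peaks lay at CTCF, as was so over whole lists. A peak is called off CTCF here when it overlaps no merged CTCF peak shared by all 4 genotypes, even where some genotypes had a call. A peak can thus lie within 1 of the 9 wider intervals and still be off CTCF. At CTCF so defined, STAG1 lists had 4 to 9 peaks and STAG2 lists 6 to 9. Off it, STAG1 lists had 0 to 5 and STAG2 lists 0 to 22. On average 86.8% of STAG1 and 57.5% of STAG2 window peaks lay at CTCF, a difference of −29.3 points (two-sided exact permutation p = 0.000667). Over all peaks of the lists, measured in the same way, the shares were 81.5% and 51.3%, a difference of −30.2 points, so nothing particular to HoxB is read from the window. In d2PGCLC, the group with the most STAG2 peaks off CTCF, the share at CTCF was 36.6% ± 6.61 for STAG2 (SD, n = 3) and 81.4% ± 12.2 for STAG1 (SD, n = 2). With lists of equal length the difference was −2.78 points, which missed the threshold (exact permutation p = 0.500). CTCF was read only in GSC mutants, so for the other cell types the sites are those of another cell type, line and genotype.

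**Figure D3:**
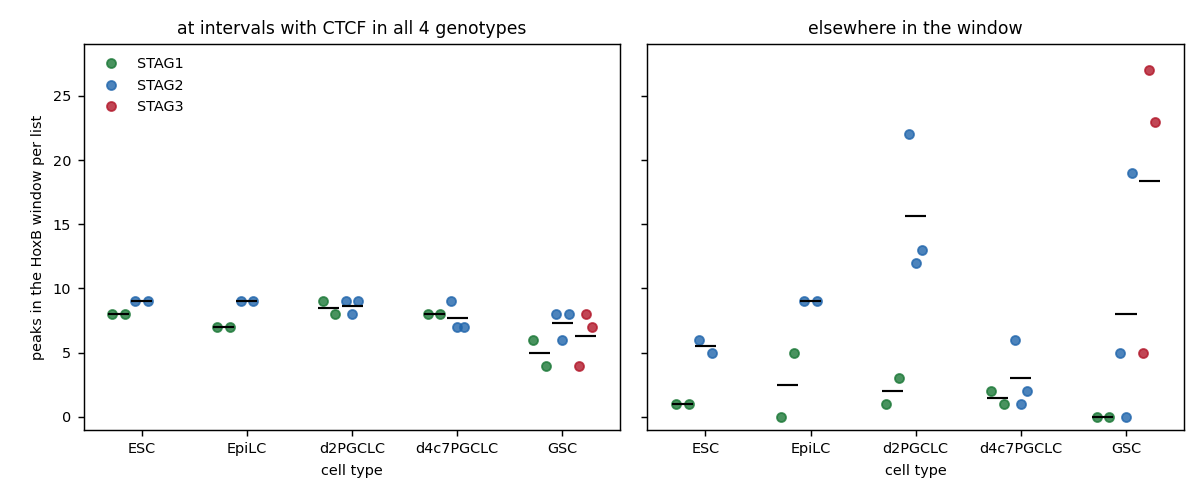
Peaks per list in the HoxB window (y axis) by cell type (x axis). Peaks that overlap a merged CTCF peak shared by all 4 genotypes are on the left, and all other peaks on the right. Points are lists, black bars are group means, and colours are proteins. On the left all lists lie between 4 and 9 peaks, and on the right the d2PGCLC STAG2 lists lie between 12 and 22 and the STAG1 lists at 5 or fewer.

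The d2PGCLC STAG2 lists were also denser than the ESC STAG2 lists in HoxA and HoxD, but not in HoxC. Their mean peaks per 100 kb were 14.6 in HoxA, 12.5 in HoxB, 6.88 in HoxC and 12.3 in HoxD. In ESC STAG2 lists these means were 6.37, 7.48, 7.37 and 5.99. Within HoxB, most of the d2PGCLC excess lay between Hoxb3 and the far side of Hoxb1. The d2PGCLC STAG2 lists had 21, 13 and 14 peaks there, of which 19, 11 and 12 were off CTCF. ESC had 4 and 5, EpiLC 8 and 8, d4c7PGCLC 5, 1 and 2, and STAG1 lists 0 to 2. In GSC the STAG2 lists had 4, 1 and 13 there, with 12 of the 13 in replicate 3 off CTCF, and the STAG3 lists 5, 13 and 15. From Hoxb9 to Hoxb5 the d2PGCLC STAG2 lists had 5, 3 and 3. This division of the window was chosen after the values were seen and was not tested. Whether STAG2 minus STAG1 differed between cell types was tested over the whole window for all 10 pairs of cell types, and the largest difference, d2PGCLC against d4c7PGCLC, was 12.7 peaks (exact permutation p = 0.160, Benjamini-Hochberg adjusted p = 0.778).

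In GSC, the STAG3 lists held 9, 35 and 30 peaks, the STAG2 lists 13, 6 and 27, and the STAG1 lists 6 and 4. STAG3 exceeded STAG2 by 9.33 peaks (exact permutation p = 0.4) and STAG1 by 19.7 (exact permutation p = 0.2), and neither design can go below p = 0.1. Without GSC STAG2 replicate 3 the excess over STAG2 was 15.2 peaks (exact permutation p = 0.3), without STAG3 replicate 1 it was 17.2 (exact permutation p = 0.2), and without STAG2 replicate 2 or STAG3 replicate 2 it was 4.67 or 4.17 (exact permutation p = 0.7 for each). The STAG3 lists did not overlap the STAG1 lists and did overlap the STAG2 lists. STAG3 replicate 1 and STAG2 replicate 2 were the short lists, with 12832 and 13698 peaks. Of the STAG3 peaks, 4, 8 and 7 overlapped a CTCF peak shared by all 4 genotypes, and 5, 27 and 23 did not. Peak names place the calling of STAG3 in a different directory from STAG1 and STAG2, so antibody and calling run cannot be told apart.

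GSC STAG2 replicate 3, the list that stood apart, shared more intervals with STAG3 than the other GSC STAG2 lists, but also had more. Of its 27 intervals, 18 were also called in STAG3 replicate 2 (58.1% of that list's 31) and 19 in STAG3 replicate 3 (67.9% of its 28). These were 66.7% and 70.4% of its own intervals. For STAG2 replicate 1 the same shares were 84.6% and 61.5%, and for STAG2 replicate 2 they were 100% and 83.3%. By this share replicate 3 did not stand out. All 9 intervals of STAG3 replicate 1 were also called in it. An interval counts as off CTCF here when it is not 1 of the 9 with CTCF in all 4 genotypes. Among such intervals is chr11:96198370-96199022, which had CTCF in 3 genotypes and was called in replicates 1 and 3. Of the 19 intervals off CTCF in replicate 3, 15 were called in at least 1 STAG3 list and 10 in at least 1 d2PGCLC STAG2 list. GSC STAG2 replicate 1 had 5 intervals off CTCF, 4 of them shared with STAG3, and replicate 2 had none. Every interval off CTCF called for STAG2 in GSC was thus a call of replicate 3, with or without replicate 1.

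GSC lists had fewer peaks than those of the other cell types over STAG1 and STAG2, 10.2 against 13.3 on average, which did not pass the threshold (difference −3.15, exact permutation within protein, p = 0.231). Without GSC STAG2 replicate 3 the difference was −6.06 (exact permutation p = 0.0300). Per 10000 peaks of a list, the window took a larger share in GSC. The shares were 6.22 and 3.71 for STAG1 and 5.20, 4.38 and 10.4 for STAG2, while the other lists ran from 2.14 to 4.76 for STAG1 and from 1.91 to 4.73 for STAG2, so that the groups overlapped. The mean difference was 2.61 (exact permutation p = 0.00287), and 1.67 without GSC STAG2 replicate 3 (exact permutation p = 0.0111). Within each protein the GSC lists were also the shortest, and with lists of equal length the difference was 0.182 (exact permutation p = 0.633).

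For STAG2, the gap between Hoxb13 and Hoxb9 held fewer peaks per length than the gene-dense part from Hoxb9 to Hoxb1. STAG1 had 5.62 peaks per 100 kb in the gap and 4.64 from Hoxb9 to Hoxb1 (difference 0.978, SD of the differences 1.77, n = 10 lists), with the gap denser in 8 of 10 lists (exact permutation of the parts within lists, p = 0.117). Without EpiLC STAG1 replicate 2, where the gene part was denser by most, the STAG1 difference was 1.41 and passed the threshold (exact permutation p = 0.0156). STAG2 had 6.59 in the gap and 11.3 from Hoxb9 to Hoxb1 (difference −4.76, SD 5.98, n = 13 lists), with the gap denser in 4 of 13 lists (exact permutation, p = 0.0122). The gap densities of STAG2 stayed between 4.02 and 9.37, while the gene part ran from 3.10 in GSC replicate 2 to 24.8 in d2PGCLC replicate 1. Lists were the units of these tests whatever their cell type, and lists of the same cell type may not be independent. The STAG2 means in the gap and the gene part ran from 6.25 and 18.2 in d2PGCLC to 6.69 and 5.85 in d4c7PGCLC. With lists of equal length the STAG2 difference was −0.339 and did not pass (exact permutation p = 0.125).

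**Figure D4:**
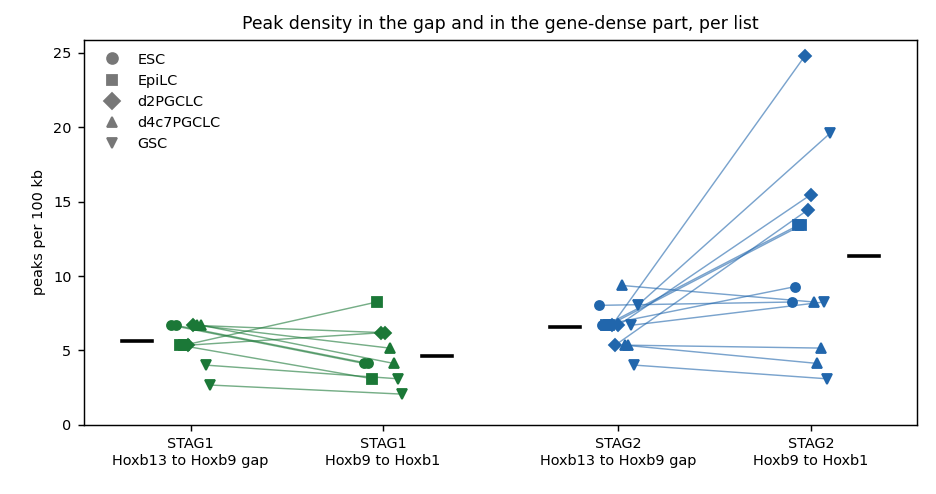
Peaks per 100 kb in the gap between Hoxb13 and Hoxb9 and in the part from Hoxb9 to Hoxb1, for STAG1 (left, 10 lists) and STAG2 (right, 13 lists). Each line joins the values of 1 list, symbols are cell types and black bars are means over lists. STAG2 lines climb to 24.8 in d2PGCLC, and those of d4c7PGCLC fall slightly.

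With 10 kb beside each cluster and the lists as deposited, no difference in peak density between HoxB and HoxA, HoxC or HoxD passed the test. Over 23 lists the HoxB window held 6.79 peaks per 100 kb. Here too each list was a unit of the test, whatever its cell type or protein. HoxB minus HoxA was −0.0659 (SD 2.93, higher in 9 of 23 lists, adjusted permutation p = 0.925), HoxB minus HoxC 1.35 (SD 3.44, 17 of 23, adjusted permutation p = 0.216) and HoxB minus HoxD 0.397 (SD 2.89, 11 of 23, adjusted permutation p = 0.922). With 0 kb beside the clusters, HoxB minus HoxD was 1.41 and passed (adjusted permutation p = 0.0295). With lists of equal length HoxB was denser than HoxC by 0.653 and less dense than HoxD by 0.985 (adjusted permutation p = 0.0006 for each). In GSC STAG2, the HoxB window held 3.09, 6.70 and 13.9 peaks per 100 kb in replicate 2, replicate 1 and replicate 3. HoxA rose in the same order, with 1.59, 3.19 and 3.98, while HoxD held 2.57 and HoxC 2.95 in each of the 3 lists.

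**Figure D5:**
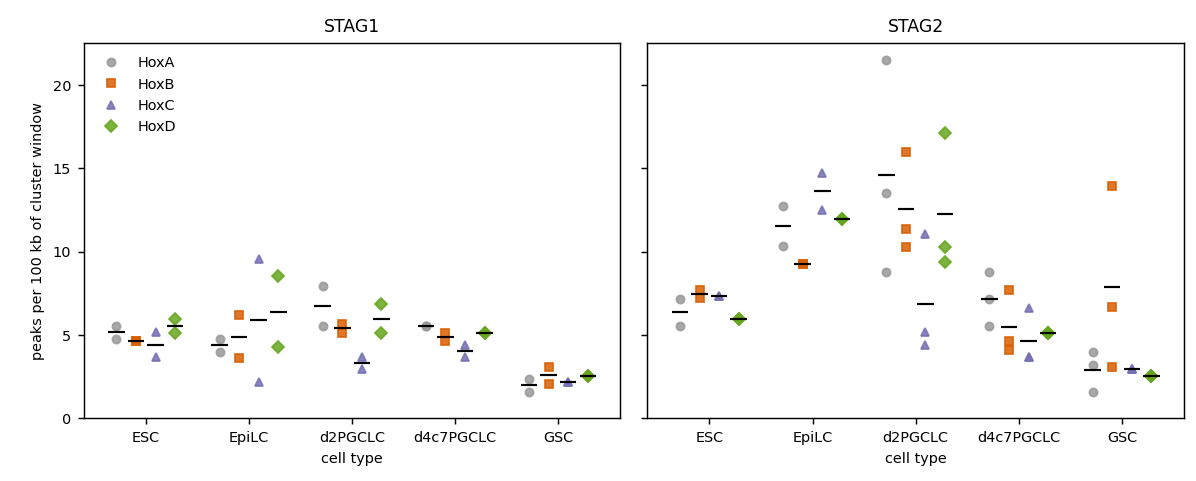
Peaks per 100 kb in the windows of the 4 Hox clusters (y axis) by cell type (x axis) for STAG1 and STAG2. Points are lists and black bars are group means. The highest GSC STAG2 point, 13.9, is HoxB in replicate 3, and the other GSC STAG2 points lie at or below 6.70.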

How the data were processed

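The submitters' processing notes name MACS2, Bowtie2 2.3.4.1, cutadapt 1.9.1 (with Trim Galore 0.4.1), bedtools 2.29.2, SAMtools 1.7 and deepTools 3.5.0, and the builds mm10 and GRCm38.p3. The sources used here do not give the control library of a list or the version and options of MACS2. The authors' lists follow the narrowPeak layout, and each peak has a fold enrichment (a ratio over background), −log10 of a p-value, −log10 of a q-value, a score, and a summit. The deposited score is 10 times −log10 q, and every deposited peak had −log10 q of at least 2. Peak names and labels show that STAG peaks were called per library and CTCF peaks on replicates pooled. The 62 samples without a list were not analysed here.

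Peaks were placed with Python 3.11.15, numpy 2.4.6, pandas 2.3.3 and scipy 1.17.1 on genes of a RefSeq table (GRCm38.p6; patches leave chromosome coordinates unchanged), whose gene table gives no strand or exons. Overlap meant at least 1 bp. Labels were permuted within cell types (STAG2 against STAG1) or within proteins (GSC against others), and windows of the same list by sign flips with up to 100000 resamples and seed 1. All tests were two-sided with a threshold of 0.05, adjusted (Benjamini-Hochberg) over the Hox clusters compared. The tests were tested on simulated data.

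All 10 genes were named. Intervals called in every list of a protein and cell type, or in all 4 CTCF lists, were given with coordinates (21 of 57), as was any CTCF interval that differed between genotypes. The cofactors named come from the first 4 with a peak in the order of the list, and some are not reported here. The members and lists were chosen with earlier results of these data known. Alternatives were a −log10 q of at least 5, lists of equal length, windows of 0 and 25 kb, summits in place of peaks, 1000 and 0 bp beside genes, a 50% overlap, CTCF in any genotype, merging across 200 bp, a replicate block and leaving out each list.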

Additional observations from a re-analysis of the deposited data

How the results depend on the processing

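Depth is unknown, and list length was the choice that changed most. With each STAG list kept to its 9641 peaks of highest fold enrichment, STAG2 minus STAG1 was 0.133 peaks (exact permutation p = 0.713), 0.138 per 10000 peaks, a turned direction, and −2.78 points at CTCF (exact permutation p = 0.500). GSC minus the others was 0.175 peaks, also turned, and 0.182 per 10000 (exact permutation p = 0.633 for each). The gap minus the gene part was −0.212 for STAG1, turned, and −0.339 for STAG2. HoxB minus HoxA was 0.155 and HoxB minus HoxD −0.985, both turned, and HoxB minus HoxC was 0.653. The adjusted permutation p was 0.0006 for HoxC and for HoxD, and over all alternatives it ran from 0.0006 to 0.419 for HoxC and from 0.0006 to 0.972 for HoxD. Gene counts were then 3 for STAG1 in d4c7PGCLC, 5 for STAG2 in EpiLC and 3 for STAG2 in d2PGCLC, with no share of all genes computed beside them. The cause of the turned directions was not tested.

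With −log10 q of at least 5, the STAG1 gap difference was 1.60 and passed (exact permutation p = 0.0156). With 0 kb beside the clusters HoxB minus HoxA was 0.163 and HoxB minus HoxD 1.41 (adjusted permutation p = 0.0295), and with 25 kb HoxB minus HoxA was 0.319. With 1000 bp beside genes, 3 HoxB genes were counted for STAG1 in EpiLC, 2 for STAG1 and 3 for STAG2 in GSC, and 4 for STAG3. With 0 bp, 1 was counted for STAG1 in EpiLC, 0 for STAG1 in GSC, 4 for STAG2 in ESC, 5 in d2PGCLC, 3 in d4c7PGCLC and 1 in GSC, 2 for STAG3, and for CTCF 2 in Stag3 KO and 3 in each other genotype. These narrower counts follow from the smaller windows. A peak in at least 1 list gave 10 for STAG2 in GSC. Apart from the GSC STAG counts with 0 bp, no share of all genes was computed for the gene counts of this section. They therefore cannot be set against a background. The distinct intervals numbered 51 when merged across 200 bp, 51 at the stricter q and 52 with 0 kb.

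Leaving out 1 list gave ranges of 6.70 to 8.80 peaks, −0.677 to −0.0519 per 10000 and −33.4 to −25.1 points for STAG2 minus STAG1, and of −6.06 to −0.813 peaks and 1.67 to 3.24 per 10000 for GSC minus the others. The ends of −0.677 (exact permutation p = 0.0921) and 1.67 per 10000 and of −6.06 peaks are without GSC STAG2 replicate 3. STAG3 minus STAG2 ran from 4.17 to 17.2 and STAG3 minus STAG1 from 14.5 to 27.5. The gap difference ran from 0.802 to 1.41 for STAG1 and from −5.26 to −3.65 for STAG2, and HoxB minus HoxA from −0.521 to 0.182, its low end without GSC STAG2 replicate 3, minus HoxC from 0.909 to 1.66 and minus HoxD from −0.101 to 0.537. HoxB minus HoxA turned without d2PGCLC STAG1 replicate 2 (0.0354), EpiLC STAG2 replicate 1 (0.0886), d2PGCLC STAG2 replicate 1 (0.182) or 3 (0.0311), or d4c7PGCLC STAG2 replicate 3 (0.0461), and HoxB minus HoxD without GSC STAG2 replicate 3 (−0.101). The STAG2 gene count in GSC was 8 without replicate 2. Of 380 alternative values over 28 results, 338 kept their direction and side of the threshold, or their count within 1.5 times.

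Replicate numbers in the labels do not state a shared culture, and the check did not pair them: of 13 same-numbered pairs, 1 had a correlation over 0.1 (range 0.0021 to 0.111), although 11 correlated best with their own number. The 13 pairs are not separate checks. In ESC and EpiLC, with 2 lists of each protein, both numbers give the same correlation by construction. With a replicate block, STAG2 minus STAG1 was 7.10 peaks (exact permutation p = 0.00391), −0.642 per 10000 (exact permutation p = 0.131) and −26.5 points at CTCF (exact permutation p = 0.00391), and STAG3 minus STAG2 9.33 peaks (exact permutation p = 0.750). No call changed.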

Other observations

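The HoxB window also holds 2 microRNA genes, Mir196a-1 in the gap before Hoxb9 and Mir10a between the annotated start of Hoxb3 and Hoxb4. Both families are known to act on Hox messages. No list had a peak on either hairpin. The nearest interval lay 3146 bp from Mir196a-1, the interval in Gm53 with CTCF in all 4 genotypes, and 557 bp from Mir10a, an interval at the start of Hoxb4 called in GSC STAG2 replicate 3 and STAG3 replicate 3 only. The mature 5p sequences from RefSeq (GRCm38.p6) are given 5′ to 3′ with the seed, bases 2 to 8, in capitals.
miR-196a-5p: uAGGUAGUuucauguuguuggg
miR-10a-5p: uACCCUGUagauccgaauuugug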
